A study of Mus musculus with 6 samples.

Results

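The panel of microRNA (miRNA) PCR assays read in mouse CD8+ T cells included 44 assays named for a human miRNA, 16 spelled with the prefix hsa- and 28 with has-, out of 350 miRNA assays in all. They were chosen by that prefix alone. By name they fell into 3 classes. The first held 11 assays with names between miR-512 and miR-527, a miRNA cluster found only in primates. The second held 23 assays whose name a mouse miRNA also carries, where a letter or copy number at its end was allowed to differ. The third held 10 assays outside the cluster whose name no mouse miRNA carries. By strand, 13 carried the star of the less abundant strand of a hairpin, 8 named an arm (-3p or -5p) and 23 were plain, here called guide names. The prefix is dropped below for human-named assays, while mouse-named assays keep mmu-.

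The cells were CD8+ T cells of pMel-1 mice, whose transgenic T cell receptor recognises an epitope of the melanoma antigen gp100. In all 6 samples they had been stimulated in vitro for 3 days. In the 3 DC-primed samples, the test group, the stimulating cells were bone marrow-derived dendritic cells matured with lipopolysaccharide. In the 3 B cell-primed samples, the control group, they were splenic B cells carrying the peptide hgp100(25-33). One sample of each group came from each of 3 rounds, and the labels do not say whether rounds were separate animals, so a p-value measures only the spread between these samples. Strain, age and any removal of the stimulating cells before RNA extraction are not stated in the labels.

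A miRNA is cut from a hairpin precursor, and one of its strands, the guide, is usually loaded into an Argonaute protein while the other, the star strand, is mostly degraded. The loaded strand recognises messenger RNAs through its seed, bases 2 to 8. The primate cluster is active mainly in placenta and early embryonic cells, and several of its members share the seed core AAGUGC with miR-372 and miR-373. Mouse cells have no copy of the cluster, but the core also occurs in the mouse miR-17, miR-290 and miR-302 families, some of which promote lymphocyte proliferation. In the assay used here all RNA was given a poly(A) tail and copied from an oligo-dT primer carrying a universal tag, so the only sequence particular to a miRNA is its forward primer.

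The primer sequences and the human mature sequences are not used here. For 22 of the human-named assays outside the cluster the mouse mature miRNA was identified, by name and arm except for miR-424*. That assay, counted among the names no mouse miRNA carries, was matched to the differently named mouse miR-322-3p. Of the 22, 19 had a sequence in RefSeq's annotation of the mouse assembly GRCm38.p6. The mouse sequences that the results turn on follow, written 5′ to 3′ with the seed in capitals. The first 6 are mouse star strands matched by name to human-named star assays, in pairs of related hairpins. Whether the human-named primers read these mouse strands was not tested. miR-322-3p is the mouse strand matching miR-424*, and the last 5 are guide strands.
mmu-miR-20b-3p: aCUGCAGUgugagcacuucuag
mmu-miR-106a-3p: aCUGCAGUgccagcacuucuuac
mmu-miR-26a-1-3p: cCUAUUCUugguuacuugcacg
mmu-miR-26a-2-3p: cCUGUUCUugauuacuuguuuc
mmu-miR-23a-5p: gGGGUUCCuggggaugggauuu
mmu-miR-23b-5p: gGGUUCCUggcaugcugauuu
mmu-miR-322-3p: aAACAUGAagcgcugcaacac
mmu-miR-196a-5p: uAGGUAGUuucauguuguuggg
mmu-miR-196b-5p: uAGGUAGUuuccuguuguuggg
mmu-miR-504-5p: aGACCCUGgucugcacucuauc
mmu-miR-300-3p: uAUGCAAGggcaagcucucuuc
mmu-miR-211-5p: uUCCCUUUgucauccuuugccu

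Some of these strands are nearly alike. miR-196a-5p and miR-196b-5p differed at 1 of 22 bases (A12C, counted from the 5′ end with the miR-196a base first). miR-20b-3p and miR-106a-3p differed at 4 of the 22 bases compared (U10C, G11C, A21U and G22A) and shared the seed CUGCAGU. miR-26a-1-3p and miR-26a-2-3p differed at 6 of 22, among them A4G inside the seed and a 3′ end with C19U, A20U, C21U and G22C. In that assembly miR-504-5p lies on the minus strand at chrX:59097705-59097726, miR-322-3p on the minus strand at chrX:53054269-53054289, and miR-20b-3p and miR-106a-3p beside each other on the minus strand at chrX:52742122-52742143 and chrX:52742505-52742527. miR-23b-5p lies on the plus strand at chr13:63300492-63300512.

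The core AAGUGC was in bases 2 to 8 of 16 of 1679 mature mouse miRNAs (0.953%). The panel read 9 of these with mouse-named assays. Which cluster assays of the panel carry the core was not checked, because human sequences are not used here. An example of each of the 3 families shows how the core is shared while the remainder differs.
mmu-miR-17-5p: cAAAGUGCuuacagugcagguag
mmu-miR-294-3p: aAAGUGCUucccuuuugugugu
mmu-miR-302b-3p: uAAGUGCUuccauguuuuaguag

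The raw readout is the threshold cycle, Ct, the PCR cycle at which fluorescence crosses a set line, and 1 cycle later means about a factor of 2 less template. Values of a group are listed in the order of rounds 1, 2 and 3. Levels are given as minus the authors' dCt, on the log2 scale, so that a higher value is more product, and differences are DC-primed minus B cell-primed. The number the authors subtracted from each sample's Ct was 26.2, 28.5 and 30.5 in DC-primed samples 1, 2 and 3, and 26.4, 27.1 and 27.6 in their B cell-primed counterparts. DC-primed sample 3 was therefore read at the latest cycles of the 6. The samples carried T lymphocyte miRNAs, with a median level of 1.44 to 6.08 over a list of 8 in the 6 samples. By mean level the list ran from rank 4 of 350, for the activation-linked miR-21, to rank 166, for miR-181a. The activation-linked miR-155 ranked 10. Of miRNAs not expected in T cells, miR-1 and miR-9 had a median level of -5.68 to -1.84. Their Ct was below 35 in 6 and 4 samples, and miR-9 reached a level of 1.46 in DC-primed sample 1. Also not expected in T cells, mmu-miR-208a and mmu-mir-208b had mean levels of -1.08 and -6.28, ranks 161 and 328 of 350. By mean level mmu-miR-208a thus lay above miR-181a. The median level of 3 myeloid miRNAs (miR-223, miR-22 and miR-146b) was 5.36, 1.23 and -6.53 in DC-primed samples 1 to 3 and -1.25, -2.07 and -4.22 in B cell-primed samples 1 to 3. Whether RNA of the priming cells contributed to any level below was not tested.

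Most assays for the primate cluster gave product in these mouse cells. A Ct below 35 in all 6 samples was found for 9 of 11 cluster assays (81.8%), 17 of 23 assays with a mouse namesake (73.9%) and 7 of 10 with other names (70.0%). Over all human-named assays the count was 33 of 44 (75.0%), against 241 of 306 mouse-named assays (78.8%) and 274 of 350 overall (78.3%). The cluster's reads were also not confined to late cycles. The median over its assays of the mean Ct was 29.5, against 30.7 for assays with a mouse namesake, 30.1 for the other names and 28.9 for mouse-named assays. Assays differ in primer efficiency, so such values describe assays and do not order amounts of RNA.

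Star names and guide names were read about as often. Of the human-named star assays 10 of 13 (76.9%) were below Ct 35 in every sample, and of the guide names 17 of 23 (73.9%). Among mouse-named star assays the count was 38 of 55 (69.1%). The number of human-named assays below 35 in each sample was 39, 37 and 34 after DC priming and 40, 37 and 38 after B cell priming. The means were 36.7 ± 2.52 and 38.3 ± 1.53 (SD, n = 3 each), and the difference of -1.67 assays did not exceed the spread (exact permutation test, two-sided, p = 0.5, where the smallest possible is 0.1).

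The panel's controls read over a wide range of cycles. The 9 wells for cel-mir-67, a nematode miRNA, had Ct values of 16.94 to 26.22 over the 6 samples, and the labels do not say whether its RNA was added. The 1 well for cel-mir-356, another nematode miRNA, read 44.08 in DC-primed sample 1 and 44.91 in B cell-primed sample 1, and had no Ct in the other 4 samples. The small RNAs RNY3 and snoRD47 ran from 22.26 to 32.91 and from 17.5 to 39.18 over their wells. A no-template reaction and melting curves are not used here, so what each cluster assay amplified was not tested.

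Within the cluster the levels spanned more than 10 log2 units. miR-520g was highest, with levels of 2.94, 0.52 and -0.17 in DC-primed samples 1, 2 and 3 and 3.27, 4.49 and 3.60 in B cell-primed samples 1, 2 and 3. Its mean of 2.44 ranked 51 of 350 assays. The second miR-520b assay, named 520b-s in the files, read -0.53, 3.00 and 2.82 after DC priming and 0.11, 1.81 and 2.80 after B cell priming. Both thus lay in the upper part of the panel, above most mouse-named assays.

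A second tier of the cluster lay within about 1 unit of the authors' reference number. miR-518f read -0.11, 1.12 and -0.09 after DC priming and 1.14, 0.51 and 0.13 after B cell priming. miR-527 read -0.59, -0.09 and 0.39 against 0.20, -1.03 and -0.19. In both assays the groups overlapped, and the differences were -0.29 ± 0.69 and 0.24 ± 0.67 (limma's SE, n = 3 each).

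The next tier was lower. miR-523 read -2.19, -1.25 and -1.41 after DC priming and -1.93, -1.86 and -1.89 after B cell priming, and its B cell-primed SD of 0.04 was the smallest of the 33 tested human-named assays in that group. The assay named for the 5p strand of miR-524 read -2.97, -0.45 and -1.23 against -2.24, -1.88 and -1.09. The assay named for the 3p strand of the same human hairpin read -4.14, -4.26 and -3.73 against -4.45, -4.70 and -3.84. The 5p assay crossed earlier than the 3p assay in all 6 samples, by 2.54 ± 0.86 cycles (SD, n = 6).

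miR-512-5p, miR-519a* and miR-526a lay in the range of the miR-524 assays. miR-512-5p had levels of -4.23, -3.66 and -3.66 after DC priming and -3.69, -4.12 and -2.00 after B cell priming. miR-519a* had -3.82, -2.83 and -3.60 against -3.79, -3.69 and -2.58. miR-526a had -3.57, -2.35 and -4.75 against -3.55, -3.67 and -3.96, and missed the Ct limit in DC-primed sample 3 alone, at 35.21. For all 3 the groups overlapped.

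The pair of assays for miR-520b gave very different reads. The assay whose row the authors name as the long primer had Ct values of 35.92 and 37.97 in DC-primed samples 1 and 2, none in sample 3, and 37.32, 37.85 and 35.56 after B cell priming. The 520b-s assay read 26.71, 25.46 and 27.64 against 26.24, 25.31 and 24.83. It crossed earlier in each of the 5 samples with both values, by 9.21 to 12.54 cycles and by 11.2 ± 1.39 on average (SD, n = 5). The primers of neither assay are used here.

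Of all human-named assays the long-primer miR-520b assay had the smallest p-value in the authors' deposited table, 0.00314 in their paired test with a fold change of 2.45. In that table its dCt for DC-primed sample 3, which had no Ct, corresponds to a Ct of 36.945, the mean of the other DC-primed samples (35.92 and 37.97). Adjusted by Benjamini-Hochberg over the 345 assays of the authors' deposited table, its p was 0.362. The authors' deposited table gave a p under 0.05 to 2 of 42 human-named assays, this one and miR-424*, against 18 of 345 assays overall (5.22%). Of 10 dCt values filled in over the panel, 2 fell on human-named assays, the other being miR-26a-2* in the same sample.

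The comparison asked which of these assays differed between T cells primed by dendritic cells and by B cells. At an adjusted p under 0.05, limma (Benjamini-Hochberg over all 274 tested assays) called 0 of the 33 human-named assays tested, and 0 of 274 overall (0.0%). Without adjustment 1 of 33 had a p under 0.05, against 24 of 274 (8.76%). That assay was miR-520g, whose Ct was 23.24, 27.94 and 30.63 after DC priming and 23.08, 22.63 and 24.03 after B cell priming. All 3 DC-primed levels lay below all 3 B cell-primed ones. The difference was -2.69 ± 0.91 (limma's SE, 95% interval -4.77 to -0.61), with an adjusted p of 0.436 by limma.

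The miR-520g difference lay in rounds 2 and 3, at -3.98 and -3.78, while in round 1 it was -0.33. Leaving out DC-primed sample 1 moved it to -3.62, with an adjusted p of 0.063 by limma, and leaving out DC-primed sample 3 moved it to -2.06. Relative to RNY3 and snoRD47 it was -1.47 and without normalization -4.02. It remained negative in each of these settings.

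Of the 9 tested cluster assays 5 were on the DC-primed side and 4 on the B cell-primed side. Without normalization 0 of 9 were on the DC-primed side, against 24 of 274 over all assays. Relative to RNY3 and snoRD47 the count was 8 of 9, against 238 of 274. Apart from miR-520g, the other 8 had differences between -0.58 and 0.28. Among these the 95% interval was narrowest for miR-523, from -1.16 to 1.71, and widest for 520b-s, from -2.36 to 2.74. The median over the 9 was 0.18, beside 0.07 over all 274 assays. That median was -0.37 without DC-primed sample 2 and -0.0022 without DC-primed sample 3. It was -0.07 and -0.10 without B cell-primed samples 1 and 2 in turn.

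Replicate samples were close together for most of the tested cluster assays. The SD within groups, pooled over both, had a median of 0.62 over the 9 tested cluster assays and 0.62 over the 7 with other names. It was 1.23 over the 17 with a mouse namesake and 0.98 over all 274. It was under 1 in 6 of 9, 6 of 7 and 6 of 17 of these classes, against 138 of 274 overall (50.4%). In the cluster it was 1.70 for 520b-s, 1.24 for miR-520g and 1.00 for miR-524-5p. For comparison at like levels, the 183 tested mouse-named assays within the cluster's range of mean levels had a median of 0.93, with 54.1% under 1. The classes were not compared by a test.

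Of the 9 mouse-named assays whose miRNA holds the seed core, 7 were tested, 2 of them on the DC-primed side and 5 on the B cell-primed side, with a median difference of -0.93. Relative to RNY3 and snoRD47 that median was 0.30. Without normalization it was -2.26, relative to the sample median -0.96 and with quantile normalization -0.91. Among these scalings its sign turned only relative to RNY3 and snoRD47, where the median over all 274 assays was 1.30. That panel median was 0.07 with the authors' dCt and -1.26 without normalization, so the list lay below the panel each time.

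Of the 10 other names without a mouse namesake, several belong to known families. miR-371-3p, miR-372 and miR-373 come from a human embryonic stem cell cluster whose mouse counterpart is the miR-290 cluster, and miR-506 and miR-508 from a fast-evolving cluster on the X chromosome that is active in testis. miR-371-3p was the highest of these, with levels of 1.67, 1.76 and 1.10 after DC priming and 2.18, 1.79 and 0.65 after B cell priming, a mean rank of 76 of 350. miR-372 read -2.28, -1.90 and -1.83 against -2.49, -2.17 and -3.01, and its pooled SD of 0.35 was the smallest of the tested human-named assays. These assays scattered little and overlapped between the groups.

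In the miR-506 and miR-508 cluster, miR-506 had levels of -2.59, -1.47 and -1.18 after DC priming and -1.02, -1.71 and -1.21 after B cell priming, a difference of -0.44 ± 0.68. The assays named for the 2 strands of miR-508 crossed within 1.35 cycles of each other in every sample, with a mean gap of 0.44 ± 0.98 cycles (SD, n = 6). The assays named for the strands of miR-373 were 5.45 ± 1.60 cycles apart, miR-373* being later in all 6 samples. miR-373* had a Ct below 35 in 2 samples only.

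Among tested assays miR-424* stood apart by its round. Its Ct was 25.58, 28.19 and 21.98 in DC-primed samples 1, 2 and 3 and 27.64, 28.24 and 21.5 in B cell-primed samples 1, 2 and 3, so both round 3 samples crossed earlier than the other 4. Its levels were 0.60, 0.27 and 8.48 after DC priming and -1.29, -1.12 and 6.13 after B cell priming. The round 3 level exceeded the mean of rounds 1 and 2 by 8.04 after DC priming and 7.33 after B cell priming, by 7.69 on average. A shift of 3 or more in size was seen for this 1 of 33 tested human-named assays, against 13 of 274 tested assays in all (4.74%). The next in size among tested assays was 4.26, for mmu-miR-210. Of the assays left out by the Ct limit, mmu-miR-30a shifted further, by 17.1, and mmu-miR-146b by -7.64.

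The mouse strand that matches miR-424* is miR-322-3p, printed above, and the other strand of its hairpin was read by mmu-mir-322. The latter did not share the shift. Its Ct was 34.61 and 31.35 in the round 3 samples, where the gap to miR-424* was 12.63 and 9.85 cycles, while in the other 4 samples the gap lay between -0.93 and 1.90. miR-503, which lies beside it at chrX:53054027-53054049, read -4.13 and -3.62 in round 3 and -4.18, -3.71, -4.09 and -8.04 in the others.

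Within each round miR-424* was higher in the DC-primed sample, by 1.89, 1.39 and 2.35. The mean difference of 1.87 had an SE of 2.55 in the unpaired fit, where the round 3 samples widen the spread, with an adjusted p of 0.971 by limma. With the round as a block the SE was 0.78 and the adjusted p 0.309. The authors' deposited table gives a paired p of 0.0212 and a fold change of 3.66.

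Among human-named assays with a mouse namesake, miR-504 had the highest level, and its mean of 6.89 ranked 7 of 350. miR-504 is known as a repressor of p53, and its gene lies in an intron of Fgf13. Its Ct was 19.86, 21.39 and 20.88 after DC priming and 20.33, 21.44 and 20.99 after B cell priming, a range of under 2 cycles even in DC-primed sample 3. Its levels were 6.32, 7.07 and 9.58 against 6.02, 5.68 and 6.64, so that the differences by round were 0.30, 1.39 and 2.94.

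The miR-504 difference was 1.54 ± 0.92, with an adjusted p of 0.72 by limma. Leaving out DC-primed sample 3 moved it to 0.58 and quantile normalization to 0.06. Without normalization it was 0.21. The 6 Ct values were nearly level, and the largest difference by round was in the sample with the latest cycles overall.

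miR-211, a miRNA of pigment cells encoded in an intron of Trpm1, read 3.04, 0.77 and 1.32 after DC priming and 0.52, 1.09 and -0.48 after B cell priming, a difference of 1.33 ± 0.82. The differences by round were 2.52, -0.32 and 1.79, so they did not share a sign. miR-429, of the epithelial miR-200 family, read -5.33, -4.17 and -4.49 against -2.94, -5.00 and -3.37, a difference of -0.90 ± 0.77. miR-301b and miR-196a had differences of -0.58 ± 0.71 and -0.49 ± 1.08. miR-196a differed in the same direction in every round, at -0.47, -0.97 and -0.02, while miR-429 and miR-301b did not.

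Over the 33 tested human-named assays, 22 were higher in DC-primed cells, against 146 of 274 overall (53.3%). That count was 17 of 33 without DC-primed sample 2 and also without DC-primed sample 3, against 138 and 142 of 274. It was 3 of 33 without normalization, against 24 of 274 over all assays. Relative to RNY3 and snoRD47 it was 32 of 33, against 238 of 274. The direction thus moved with the scaling over the whole panel. A difference of at least 1 in size was seen for 9 of 33, against 88 of 274 overall (32.1%). It came with 1 sign in all 3 rounds for 6 of 33 (18.2%), against 50 of 274 overall (18.2%). The 6 were miR-520g on the B cell-primed side and miR-424*, miR-20b*, miR-504, miR-23b* and miR-106a* on the other. One sign in every round, of any size, was seen for 10 of 33, against 70 of 274 (25.5%). The groups did not overlap for 2 of 33, miR-520g and miR-23b*, against 37 of 274 (13.5%). These counts were not compared with those of the panel by a test.

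Star and guide names are compared here by count and median only. Of 10 tested human-named star assays 8 lay on the DC-primed side, with a median difference of 0.89, and of 17 guide names 10 did, with a median of 0.16. Mouse-named star assays had 23 of 38 higher and a median of 0.23. Without DC-primed sample 3 the human-named star median was 0.08, with 6 of 10 higher, and without normalization it was -0.44. The 17 assays with a mouse namesake, 8 of which are star names, likewise had a median of 0.72 that became 0.13 without DC-primed sample 3.

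miR-23b*, from the miR-23b, miR-27b and miR-24-1 cluster, had the highest mean level of the human-named star assays, 2.50, a rank of 50 of 350. Its levels were 2.88, 3.18 and 3.13 after DC priming and 1.96, 1.10 and 2.72 after B cell priming, and the groups did not overlap. The difference was 1.13 ± 0.68, with an adjusted p of 0.72 by limma. Its paralog miR-23a* crossed 5.85 ± 0.83 cycles later (SD, n = 6), and later in all 6 samples.

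miR-20b* and miR-106a* come from the X-linked paralog of the miR-17 cluster, and the mouse strands matched to them by name share a seed. miR-20b* read 0.24, 0.70 and -3.10 after DC priming and -1.85, -1.78 and -3.74 after B cell priming. miR-106a* read -6.20, -3.87 and -2.31 against -6.67, -4.40 and -4.44. Both were on the DC-primed side in every round, by 2.09, 2.48 and 0.64 for miR-20b* and by 0.47, 0.53 and 2.13 for miR-106a*. The mean differences were 1.73 ± 1.10 and 1.04 ± 1.10, with adjusted p-values of 0.772 and 0.971 by limma. Their courses over rounds ran opposite ways, since miR-20b* was lowest in round 3 in both groups and miR-106a* was lowest in round 1 in both.

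The panel held 3 human-named assays beside a mouse-named assay of the same name, and none of these pairs read alike. The human-named miR-20b* assay had Ct values of 25.94, 27.76 and 33.56 after DC priming and 28.20, 28.90 and 31.37 after B cell priming, while mmu-mir-20b* had 32.35, 34.83 and 35.04 against 30.01, 32.05 and 32.96. The human-named assay was earlier in all 6 samples, by 1.48 to 7.07 cycles and by 3.58 ± 2.52 on average (SD, n = 6). The level differences between groups had opposite signs, 1.73 for the human-named and -1.07 for the mouse-named assay, the latter not tested because of its Ct of 35.04. The gap was 4.99 ± 3.05 cycles after DC priming and 2.18 ± 0.84 after B cell priming (SD, n = 3 each), with overlap between the groups.

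The human-named miR-300 assay was also earlier than its mouse-named twin in all 6 samples. Its Ct was 28.10, 27.19 and 31.04 after DC priming and 27.79, 27.37 and 27.65 after B cell priming, and the gap was 3.39 ± 0.93 cycles. For miR-301b the order was the reverse. The human-named assay read 29.89, 30.36 and 32.71 against 28.59, 29.07 and 29.58, later than mmu-miR-301b in all 6 samples, and the gap ran from -5.29 to -2.36 cycles with a mean of -4.12 ± 1.17. The level differences of these 2 pairs were 0.16 and -0.03 for miR-300, and -0.58 and -0.36 for miR-301b.

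In 12 further pairs a human-named assay could be set beside a mouse-named assay of the other strand of its hairpin. The human-named strand was later on average in 8 pairs and earlier in 4, and it was later in every sample with both values in 6. The closest pairs were miR-23b* with mmu-miR-23b, at a mean gap of 0.40 ± 2.85 cycles, miR-20b* with mmu-miR-20b at 0.85 ± 2.57, miR-106a* with mmu-miR-106a at -1.28 ± 2.32, and miR-195* with mmu-miR-195 at -2.68 ± 0.66 (SD, n = 6, negative where the human-named strand was later). The deposited Ct and dCt tables disagree for mmu-miR-23a and mmu-miR-23b, and the gaps use Ct. By Ct the order in miR-23b turned with the sample, from -1.91 in B cell-primed sample 1 to 5.67 in DC-primed sample 3. By dCt, mmu-miR-23b levels were 0.04, 1.10 and 0.46 after DC priming and 3.87, 4.84 and 2.24 after B cell priming. miR-23b* levels were 2.88, 3.18 and 3.13 against 1.96, 1.10 and 2.72. On that scale miR-23b* was higher in every DC-primed sample and in B cell-primed sample 3. The order within a sample thus depends on which deposited values are used.

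The farthest pairs were 4 star strands that crossed later than their guide strand in every sample with both values. miR-26a-2* crossed 12.2 ± 1.84 cycles after mmu-miR-26a (n = 5) and miR-30b* 11.0 ± 3.34 cycles after mmu-miR-30b (n = 4). By Ct, miR-23a* was 7.79 ± 1.53 cycles after mmu-miR-23a and miR-26a-1* 6.96 ± 2.85 after mmu-miR-26a (n = 6). The mean levels from dCt, which disagrees with Ct for mmu-miR-23a, were -3.35 for miR-23a* and 3.15 for mmu-miR-23a. The star strands of both miR-26a hairpins differed from each other too, miR-26a-2* being later by 1.65 to 7.87 cycles in the 5 samples with both. By contrast miR-196a and miR-196b, 1 base apart in mouse, crossed within 1.45 cycles of each other in every sample, with a mean gap of -0.20 ± 0.82 (SD, n = 6, negative where miR-196b was earlier). Whether their primers tell these strands apart was not tested.

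The 11 human-named assays that were not tested lay close to the limit or far beyond it. Close to it were miR-503, miR-526a and miR-95, whose latest Ct values were 35.16, 35.21 and 35.31, each in 1 sample, and miR-205, with 35.86 and 35.83 in DC-primed samples 2 and 3. On the tested side miR-429 and miR-373 had latest values of 34.95 and 34.83. miR-199b-5p was below 35 in 3 samples, miR-373* and miR-26a-2* in 2, and miR-450-3p in 1. The long-primer miR-520b assay, miR-1277 and miR-30b* were below 35 in none, and the last 2 are not in the dCt table. The lowest mean levels outside the cluster were -10.36 for miR-450-3p, -9.86 for miR-1277, -9.50 for miR-373* and -9.15 for miR-30b*, computed for the second and the last from Ct and the authors' number.

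The sign of many of these differences changed with the scaling. Without normalization 19 of the 33 tested human-named assays changed sign, and relative to RNY3 and snoRD47 10 did. Under the sample median 0 did and under quantile normalization 2. Over all settings run, leaving out single samples included, miR-520g, miR-20b* and miR-504 were the 3 of 33 that kept their sign.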

How the data were processed

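SYBR Green quantitative PCR was run on total RNA of 3 DC-primed and 3 B cell-primed samples. Per the file headers, the authors deposited 1 table of raw Ct (cycles) and 1 of dCt and ddCt on the log2 scale, with a fold change (a ratio, DC-primed over B cell-primed) and a two-tailed paired p-value; the file names state Ct and dCt the other way round, and the values match the headers. dCt was Ct minus 1 number per sample, per the file headers a geometric mean of Ct. Software, instrument and the Ct calling rule are not stated in the labels or headers, and counting depth does not apply.

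Levels are minus dCt. An assay was tested where all 6 samples had a Ct below 35 (274 of 350 assays, 33 human-named). limma 3.58.1 in R 4.3.3 (lmFit, eBayes, two-sided) was fitted on all of them with adjustment by Benjamini-Hochberg and called at 0.05, after the script was tested on simulated data. ± is limma's SE for differences and the SD elsewhere. Tables were made in Python 3.11.15.

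The titles number the rounds. Subtracting group means left deviations that correlated between the samples of a round at 0.16, 0.14 and 0.46 over the tested assays, and DC-primed sample 1 with B cell-primed sample 2, of different rounds, at 0.33. These values alone do not settle the pairing; the rounds were used as pairs in the alternative with the round as a block, as in the authors' paired test.

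The members, lists and tests were chosen with earlier results of these data known. Named were every cluster assay; of the others the 4 highest and lowest mean levels, the 4 largest differences each way, those of 1 or more with 1 sign in all rounds, those with an unadjusted p under 0.05, the 4 closest and farthest pairs and all assays not tested. Beyond this rule the same-name pairs, miR-372, miR-373, miR-508, miR-371-3p and miR-196b were named after their values were seen. Alternatives were 4 other normalizations, 3 other limits on Ct, the block and leaving out samples; leaving out filled-in values and whole rounds was added after seeing the data. Sequences are RefSeq's.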

Additional observations from a re-analysis of the deposited data

How the results depend on the processing

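Of human-named assays 0 were called in every setting run, among them the fit with the round as a replicate block, which called 0 of 33 and gave 3 an unadjusted p under 0.05 (miR-520g, miR-424* and miR-20b*), against 33 of 274 overall (12.0%). Over all assays leaving out 1 sample gave 0 to 2 calls, the 2 coming without DC-primed sample 3. Over all 274 tested assays the median difference was -1.26 with no normalization and 1.30 with RNY3 and snoRD47 as references. In those settings it was -1.14 and 1.41 over tested human-named assays and -1.15 and 1.41 over cluster assays. Over assays with a mouse namesake it was -0.61 and 1.95. Leaving out a sample or a round moved the human-named, cluster and mouse-namesake medians between -0.01 and 0.56, -0.44 and 0.33, and 0.13 and 0.91. With a Ct limit of 32, 19 human-named assays were below it in all 6 samples. Counting only assays earlier than every C. elegans well of their sample in all 6 samples left 0 human-named and 0 cluster assays. The mean count per sample differed by 0 assays between the groups. miR-504 passed in DC-primed sample 2 (21.39 against 24.31) and B cell-primed sample 1 (20.33 against 22.51). The earliest cel-mir-67 well was at 16.94, in DC-primed sample 3, so this limit cannot show whether the human-named reads are specific. The cause of these changes was not tested. Leaving out a sample gave 33 to 35 human-named and 9 to 10 cluster assays below 35. With 3 samples a group the precision of every difference is limited, and the single-well assays carry no measure of technical error.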
